A study of Mus musculus with 32 samples.

Results

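The 37 genes described here encode the core DNA replication machinery and the regulators of the G1/S step of the cell cycle, followed in mouse bone marrow-derived macrophages (BMDMs) during a response to lipopolysaccharide (LPS). They are 37 of the 25067 genes in the deposited table. They were taken from a list of names: RefSeq transcripts were mapped to mouse gene symbols, and the transcript with the highest mean count stood for each gene. 37 passed the filter on low values, a mean of more than 1 RPKM (reads scaled to transcript length and library size) in at least 1 group, and so were among the 11186 genes tested.

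Replication of the genome starts from origins onto which Cdc6 and Cdt1 load the ring of Mcm2, Mcm3, Mcm4, Mcm5, Mcm6 and Mcm7. Cdc45 and the GINS complex then turn this ring into the active CMG helicase, polymerases copy the strands behind it, and the sliding clamp Pcna, placed by the clamp loader of Rfc subunits, holds the polymerases on the template. Entry into this phase is set in G1: D-type cyclins with Cdk4 and E-type cyclins with Cdk2 phosphorylate the retinoblastoma proteins and free E2F factors, which drive transcription of many replication genes, and CDK inhibitors such as Cdkn1a oppose those kinases. Macrophages grown from marrow in the presence of Csf1, which L929-conditioned medium supplies, still divide, and LPS is known to halt their proliferation.

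BMDM-WT came from wild-type littermates and BMDM-Nur77-KO from mice without Nr4a1, the gene for the orphan nuclear receptor Nur77, all male, C57Bl6/J and 6 to 12 weeks old. The deletion was made in the whole body by crossing a Cre driven by the CMV promoter to a loxP-flanked Nr4a1 locus, and the mice used were offspring that no longer expressed Cre. The labels name this genotype cre. Marrow of both genotypes was differentiated for 7 days and exposed to LPS at 100 ng/ml for 1, 5 or 18 h or left untreated (0 h), which made 8 groups of 4 libraries and 32 libraries in all. The only untreated group of each genotype is 0 h. An LPS effect below is therefore a difference from 0 h, in which LPS and any time in culture cannot be told apart. The wells were seeded as 4 replicates and the number of animals behind them is not given in the sources used here, so p-values measure only the spread between these samples, which may be technical. In bulk RNA, fewer cells of a type and less RNA per cell cannot be told apart. Levels are given in CPM, counts scaled to library size with TMM factors (a correction for composition), and differences as log2 fold changes ± standard error from edgeR's quasi-likelihood test, in which a gene is called at an adjusted p under 0.05.

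Library totals ran from 8742362 to 15780926 counts. Nr4a1 read 19.7 ± 4.35 CPM (SD, n = 4) at 0 h and 437 ± 60.1 CPM at 1 h in BMDM-WT, against 5.25 ± 1.19 and 191 ± 39.9 CPM in BMDM-Nur77-KO. This was a log2 difference of -1.90 ± 0.19, adjusted p = 1.61e-08 at 0 h and of -1.20 ± 0.15, adjusted p = 1.90e-06 at 1 h. Its mean was under 1 CPM in all 4 groups at 5 and 18 h, with a log2 difference of -1.54 ± 0.55, adjusted p = 0.0418 at 5 h and of -0.47 ± 0.69, adjusted p = 0.677 at 18 h. Some reads of the locus thus remained in BMDM-Nur77-KO. The 8 macrophage markers summed to 10987 to 18908 CPM in every library. At 5 h they summed to 16481.5 to 17890.4 CPM in BMDM-WT and 13176.6 to 16025.9 CPM in BMDM-Nur77-KO. At 18 h the sums were 14000.1 to 14655.4 and 10987.4 to 12625.7 CPM. The genotypes did not overlap at these 2 times and did overlap at 0 and 1 h. The part of this difference in the results below was not tested. The 10 markers of neutrophils and their progenitors summed to 17.8 to 30.4 CPM in BMDM-WT and 27.2 to 35.4 CPM in BMDM-Nur77-KO at 0 h, and to 28.1 to 37.8 and 43.5 to 52.0 CPM at 1 h. Of these, 6, among them the progenitor enzymes Elane, Mpo, Ctsg and Prtn3, averaged under 1 CPM. Markers of B cells, fibroblasts, erythroid cells, mast cells and T or NK cells summed to less than 5 CPM in each library. The dendritic cell list rose to between 10.3 and 21.6 CPM at 5 h, with 3 of its 4 genes (Flt3, Zbtb46 and Siglech) averaging under 1 CPM. Library 1 of BMDM-Nur77-KO at 5 h and library 4 of BMDM-Nur77-KO at 18 h lay farthest from the other libraries of their groups, with root mean square log2 differences over the tested genes of 0.730 and 0.518 against 0.207 to 0.449 elsewhere. Calls between genotypes that ended without 1 of them are named below. The LPS effects of single genes in BMDM-Nur77-KO are given with all 4 libraries of each group.

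Most of the 37 genes were lower after 5 h and 18 h of LPS than at 0 h, while the D-type cyclin gene Ccnd2 and the CDK inhibitor gene Cdkn1a rose. In BMDM-WT, 29 of the 37 genes fell and 3 rose at 5 h, beside 40.1% lower and 30.1% higher among all genes tested. At 18 h, 31 fell and 4 rose, beside 34% lower and 32.4% higher. BMDM-Nur77-KO gave 29 lower and 4 higher at 5 h (all genes 39.3% and 32.2%) and 31 lower and 5 higher at 18 h (all genes 35.7% and 33.9%). The median log2 fold change of the 37 genes was -1.17 at 5 h and -1.70 at 18 h in BMDM-WT, where the median of all genes was -0.14 and -0.0041. In BMDM-Nur77-KO these medians were -1.24 and -1.53, against -0.12 and -0.019 for all genes.

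The first hour moved few of them. In BMDM-WT, 2 genes were higher (all genes 10.1%), Cdkn1a and Ccnd2, and 3 were lower (all genes 10.2%), namely Ccne1 (-0.39 ± 0.12), Rfc5 (-0.32 ± 0.083) and Gins2 (-0.32 ± 0.11), with adjusted p of 0.00525 to 0.0326. In BMDM-Nur77-KO only Cdkn1a was called, 1 higher and 0 lower, beside 6.9% and 5.39% of all genes. On the lower side, 0 members had an unadjusted p under 0.05 in edgeR's test in BMDM-Nur77-KO and 8 in BMDM-WT. The difference between these LPS effects was called for 0 members at 1 h. Shares of all genes at an unadjusted p were not taken, here or for the later counts at that limit.

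These differences over time depend on how libraries are scaled. TMM factors corrected for composition, and with library totals alone the median of all genes moved from -0.14 to -0.77 at 5 h and from -0.0041 to -0.36 at 18 h in BMDM-WT, and from -0.12 to -0.73 and from -0.019 to -0.46 in BMDM-Nur77-KO. The higher genes then made up 19.7% rather than 42.8% of all calls at 5 h in BMDM-WT, and 27.3% rather than 48.8% at 18 h. In BMDM-Nur77-KO the split went from 45.0% to 20.3% at 5 h and from 48.7% to 26.2% at 18 h. Of the 37 genes, 33 were then lower and 3 higher at 5 h in BMDM-WT, and 32 lower and 2 higher, Ccnd2 and Cdkn1a, at 18 h. At 1 h in BMDM-WT the same scaling gave 14 lower and 1 higher, with 22.1% of all calls higher in place of 49.9% (60.0% with DESeq2 size factors in edgeR), and in BMDM-Nur77-KO the split at 1 h went from 56.1% to 33.5%.

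**Figure D1:**
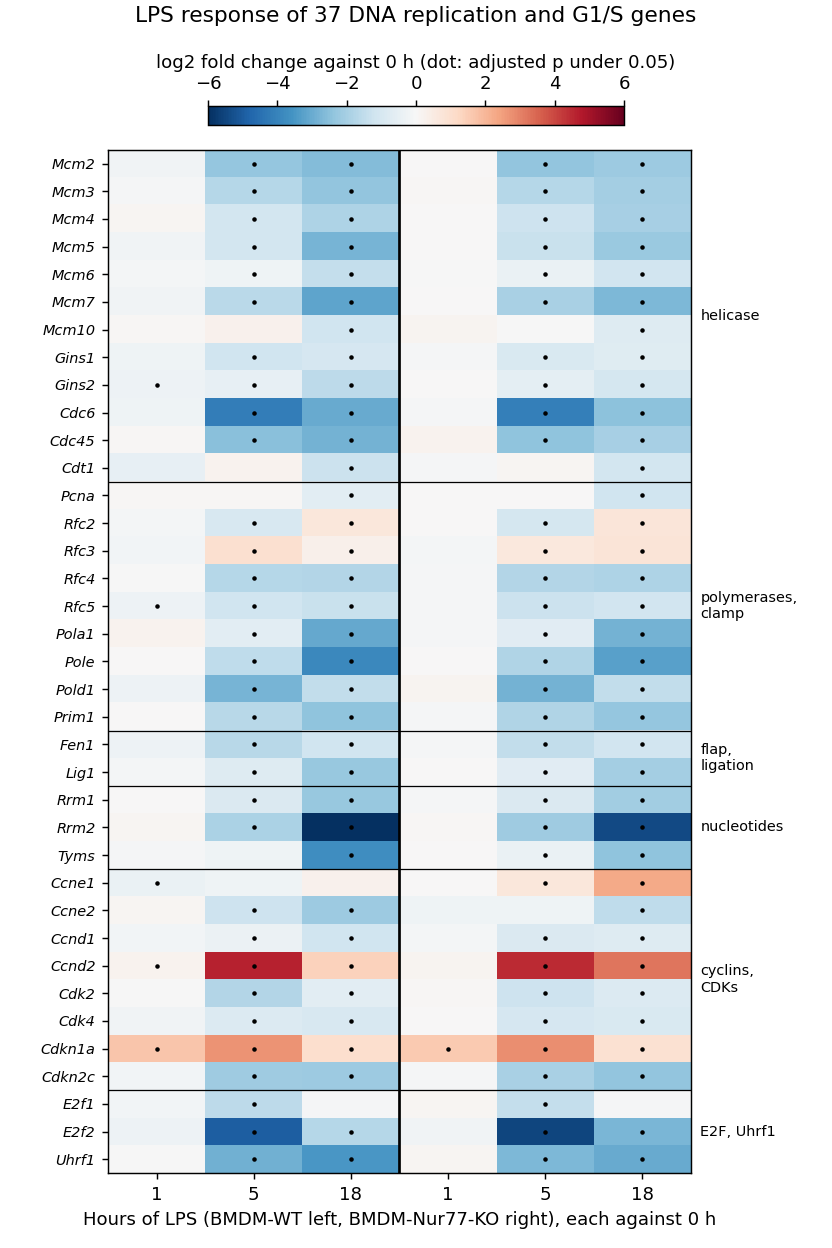
Log2 fold changes against 0 h (color scale from -6 to 6, values beyond it drawn at its end) of the 37 genes, in rows grouped by role, after 1, 5 and 18 h of LPS in BMDM-WT (left 3 columns) and BMDM-Nur77-KO (right 3 columns). A black dot marks an adjusted p under 0.05 in edgeR's quasi-likelihood test. The 1 h columns are nearly white apart from Cdkn1a, the 18 h columns are blue except Rfc2, Rfc3, Ccne1, Ccnd2, Cdkn1a and the pale E2f1, and the deepest blue is Rrm2 at 18 h (-6.09 and -5.40).

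Of the 12 genes for helicase loading and the CMG helicase, 10 fell at 5 h and 12 fell at 18 h in BMDM-WT, with median log2 fold changes of -1.15 and -2.10. The counts were 10 and 12 in BMDM-Nur77-KO, with medians of -1.30 and -1.97. Mcm5, an Mcm ring subunit, stood at 70.0, 76.4, 74.7 and 84.4 CPM in the 4 BMDM-WT libraries before LPS, at 34.6, 38.9, 39.4 and 28.9 CPM at 5 h and at 9.49, 14.4, 11.1 and 9.38 CPM at 18 h. The 3 ranges did not overlap, and each time lay below the one before. Its log2 fold change was -1.11 ± 0.15, adjusted p = 9.42e-08 at 5 h and -2.78 ± 0.16, adjusted p = 1.01e-15 at 18 h. Mcm7, another ring subunit, fell by 1.64 at 5 h and by 3.17 at 18 h on the log2 scale, from 55.2 to 58.6 CPM to 5.79 to 6.80 CPM.

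Mcm6 fell least of the called ring genes at 5 h. It read 163, 153, 158 and 174 CPM at 0 h, 133, 148, 134 and 133 CPM at 5 h and 59.5, 64.6, 64.0 and 56.6 CPM at 18 h in BMDM-WT, so that the ranges at 0 and 5 h lay close together without overlap and the 18 h libraries were far below both. The log2 fold changes were -0.24 ± 0.060, adjusted p = 5.63e-04 and -1.41 ± 0.061, adjusted p = 7.39e-19, and with library totals alone the 5 h value was -0.86 (adjusted p = 7.84e-13). Mcm2, Mcm3 and Mcm4 fell by 2.31, 1.73 and 1.08 at 5 h and by 2.59, 2.35 and 1.85 at 18 h on the log2 scale. Between 5 and 18 h Mcm2 did not pass the test (-0.27 ± 0.13, adjusted p = 0.0622).

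The loading factors split. Cdc6, which recruits the Mcm ring to origins, dropped from 12.8, 12.0, 12.9 and 14.5 CPM at 0 h to 0.452, 0.972, 0.772 and 0.705 CPM at 5 h in BMDM-WT, the latter being only 4, 8, 7 and 6 counts. At 18 h it read 1.09, 1.90, 2.08 and 1.20 CPM, above every 5 h library and below every 0 h library. The log2 fold change was -4.15 ± 0.20, adjusted p = 1.19e-17 at 5 h and -3.04 ± 0.17, adjusted p = 3.35e-16 at 18 h, and the rise from 5 to 18 h was 1.11 ± 0.27, adjusted p = 8.91e-04. Its partner Cdt1 was at 39.6, 43.8, 40.7 and 45.5 CPM at 0 h and at 48.4, 51.0, 47.6 and 50.4 CPM at 5 h, a difference that did not pass the test (0.22 ± 0.18, adjusted p = 0.287), and fell to 18.6, 19.2, 13.9 and 18.1 CPM by 18 h (-1.28 ± 0.19, adjusted p = 7.04e-07). Mcm10, which helps to fire loaded origins, behaved in the same way in the test, with 0.24 ± 0.13, adjusted p = 0.0863 at 5 h and -1.20 ± 0.14, adjusted p = 4.23e-09 at 18 h. With library totals alone the 5 h values were -0.40 (adjusted p = 0.0675) for Cdt1 and -0.38 (adjusted p = 0.0109) for Mcm10.

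Cdc45 and the GINS subunits Gins1 and Gins2 complete the helicase. Cdc45 fell from 10.00 to 11.0 CPM to 1.41 to 2.03 CPM at 5 h (-2.49 ± 0.23, adjusted p = 3.46e-11) and lay at 0.860 to 2.25 CPM at 18 h in BMDM-WT. Gins2 fell in small steps, from 18.8, 17.8, 15.6 and 20.3 CPM at 0 h to 13.4, 13.6, 12.9 and 12.1 CPM at 5 h and 6.02, 5.70, 6.15 and 6.71 CPM at 18 h, with no overlap between these times. Gins1 changed by -1.19 at 5 h and by -1.01 at 18 h, both called, and the 5 and 18 h libraries did not differ by the test (adjusted p = 0.403).

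Sequences upstream of the transcription start were available from RefSeq (GRCm38.p6, the same assembly as mm10) for 29 of the 37 genes. Those without an entry were Mcm4, Gins1, Gins2, Rfc2, Pole, Ccne2, Ccnd1 and Ccnd2. In the 250 bases before the first listed start, both strands were searched for 4 forms of the E2F site (TTTCCCGC, TTTGGCGC, TTTCGCGC and TTTGCCGC). A match was found for 7 of 29 genes (24.1%), which were Mcm5, Mcm6, Mcm7, Cdc6, Rfc3, Pola1 and Cdk2, against 517 of 27025 such windows in all (1.91%). A CCAAT box on either strand was present in 16 of 29 (55.2%), against 34.5% of all windows. The NBRE element of Nur77 (AAAGGTCA) and the AP-1 site (TGANTCA) had matches in 0 of 29, where 1.31% and 6.87% of all windows held one. A match is a string of letters and not a measured site. Members with and without an E2F match both included genes that fell and a gene that rose at 18 h in BMDM-WT, Rfc3 with a match and Cdkn1a without. The median log2 fold change at that time was -2.78 for the 7 genes with a match (-3.17 to 0.29). For the 22 without a match it was -1.74 (-6.09 to 1.00). The difference between these medians was not tested. In 4 of the matched genes (Mcm5, Mcm7, Cdc6 and Pola1) the window overlaps the span that RefSeq gives for the gene, which begins upstream of the first listed start. The windows of Mcm6 and Cdk2 overlap neither the RefSeq span nor an annotated exon of the gene. They are printed 5′ to 3′ on the strand of the gene, with the E2F matches in capitals. In Mcm6, 2 matches share bases and appear as 1 run.
Mcm6 (chr1:128359706-128359955, minus strand): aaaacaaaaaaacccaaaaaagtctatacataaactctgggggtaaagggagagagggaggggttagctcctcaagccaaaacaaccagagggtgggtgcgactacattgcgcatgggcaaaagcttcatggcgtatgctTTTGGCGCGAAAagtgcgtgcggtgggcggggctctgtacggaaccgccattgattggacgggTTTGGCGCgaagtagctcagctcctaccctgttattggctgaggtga
Cdk2 (chr10:128705052-128705301, minus strand): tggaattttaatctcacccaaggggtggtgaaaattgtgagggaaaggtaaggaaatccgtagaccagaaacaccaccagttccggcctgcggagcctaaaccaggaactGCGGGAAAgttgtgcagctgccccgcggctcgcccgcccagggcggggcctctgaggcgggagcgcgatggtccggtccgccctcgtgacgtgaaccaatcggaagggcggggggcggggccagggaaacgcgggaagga

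The polymerase, clamp and clamp loader genes were mixed. Pcna, the sliding clamp, had the highest level per length of the 37 genes before LPS, at 328 ± 23.3 RPKM (SD, n = 4) in BMDM-WT. Its level at 5 h did not differ by the test from that at 0 h, with 527, 448, 500.3 and 518 CPM at 0 h and 525, 535, 526 and 479 CPM at 5 h, and then stood at 316, 351, 313 and 289 CPM at 18 h, below every earlier BMDM-WT library. The log2 fold change was 0.051 ± 0.070, adjusted p = 0.528 at 5 h and -0.65 ± 0.070, adjusted p = 1.53e-09 at 18 h, and with library totals alone the 5 h value was -0.57 (adjusted p = 7.99e-09). The annotation holds 2 processed pseudogenes of Pcna, Pcna-ps1 and Pcna-ps2, and 1 of Tyms, Tyms-ps, and how their reads were assigned was not tested.

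The catalytic subunits fell on different schedules. Pole, the leading-strand polymerase, went from 25.7, 28.8, 27.4 and 30.6 CPM to 9.72, 10.5, 11.2 and 7.41 CPM at 5 h and 1.28, 1.90, 2.51 and 1.89 CPM at 18 h in BMDM-WT (-1.53 ± 0.12, adjusted p = 1.22e-12 and -3.88 ± 0.15, adjusted p = 2.00e-20). Pola1, which starts each new strand with its primase partner Prim1, fell by 0.63 at 5 h and by 3.07 at 18 h on the log2 scale. Both went on falling between 5 and 18 h (-2.35 ± 0.16, adjusted p = 5.33e-14 for Pole and -2.43 ± 0.20, adjusted p = 6.36e-12 for Pola1). Pold1, the lagging-strand polymerase, regained part of its level in that interval. It read 13.9, 15.9, 15.2 and 14.7 CPM at 0 h, 1.92, 2.67, 2.20 and 1.88 CPM at 5 h and 4.56, 5.03, 4.25 and 7.57 CPM at 18 h, lowest at 5 h with no overlap between the times. The change was -2.78 ± 0.22, adjusted p = 1.29e-12 at 5 h, and the step up from 5 to 18 h was 1.30 ± 0.24, adjusted p = 2.08e-05. Prim1 fell by 1.66 at 5 h and by 2.43 at 18 h.

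Among the clamp loader genes, Rfc3 rose and Rfc2 fell and then rose. Rfc3 moved from 12.7, 13.1, 12.2 and 14.1 CPM at 0 h to 27.0, 21.6, 26.0 and 28.0 CPM at 5 h in BMDM-WT (0.98 ± 0.10, adjusted p = 1.12e-09), and its 18 h libraries, at 16.7, 15.6, 14.2 and 17.0 CPM, were only just above the 0 h range (0.29 ± 0.11, adjusted p = 0.0181). With library totals alone the 18 h difference of Rfc3 turned to -0.071 (adjusted p = 0.581). Rfc2 read 28.9, 28.3, 33.3 and 31.6 CPM at 0 h, 15.4, 16.3, 15.0 and 16.0 CPM at 5 h and 51.2, 47.2, 45.2 and 51.1 CPM at 18 h, so that the 18 h libraries were the highest and the 5 h libraries the lowest (-0.96 ± 0.15, adjusted p = 1.30e-06 and 0.67 ± 0.14, adjusted p = 9.20e-05), a rise at 18 h that library totals alone put at 0.32 (adjusted p = 0.0704). Rfc4 and Rfc5 fell at both times, by 1.73 and 1.17 at 5 h and by 1.77 and 1.32 at 18 h on the log2 scale. Exons of Rfc2, Rfc4 and Rfc5 overlap a gene on the opposite strand (Lat2, Eif4a2 and Wsb2), as do those of 15 of the 37 genes in GENCODE M21. The libraries were strand-specific and were counted with default settings of HOMER. The sources used here do not spell out which strand those count, and without strand the reads of a gene and its antisense neighbour cannot be told apart.

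Rrm2, the regulated subunit of ribonucleotide reductase and so a gate on the supply of DNA precursors, showed the deepest fall of the 37 genes in BMDM-WT. It stood at 56.2, 61.8, 55.1 and 54.8 CPM before LPS, 16.7, 14.7, 14.4 and 14.3 CPM at 5 h and 0.912, 0.475, 0.867 and 1.03 CPM at 18 h in BMDM-WT, the last being 10, 5, 10 and 12 counts. Each group lay wholly below the one before. The log2 fold change was -1.92 ± 0.12, adjusted p = 2.13e-15 at 5 h and -6.09 ± 0.17, adjusted p = 9.39e-24 at 18 h, and in BMDM-Nur77-KO -2.13 ± 0.12, adjusted p = 3.14e-16 and -5.40 ± 0.16, adjusted p = 3.22e-23. The large subunit Rrm1 fell less, by 0.88 and 2.28 in BMDM-WT. Tyms, thymidylate synthase, was not called at 5 h in BMDM-WT (-0.26 ± 0.12, adjusted p = 0.0537), where library totals alone gave -0.89 (adjusted p = 2.99e-07), and fell to 1.28, 1.04, 0.867 and 0.516 CPM by 18 h (-3.75 ± 0.17, adjusted p = 1.22e-18). The transcript kept for Tyms, NR_033402, is a non-coding variant, as is NR_156128 for Cdc6.

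**Figure D2:**
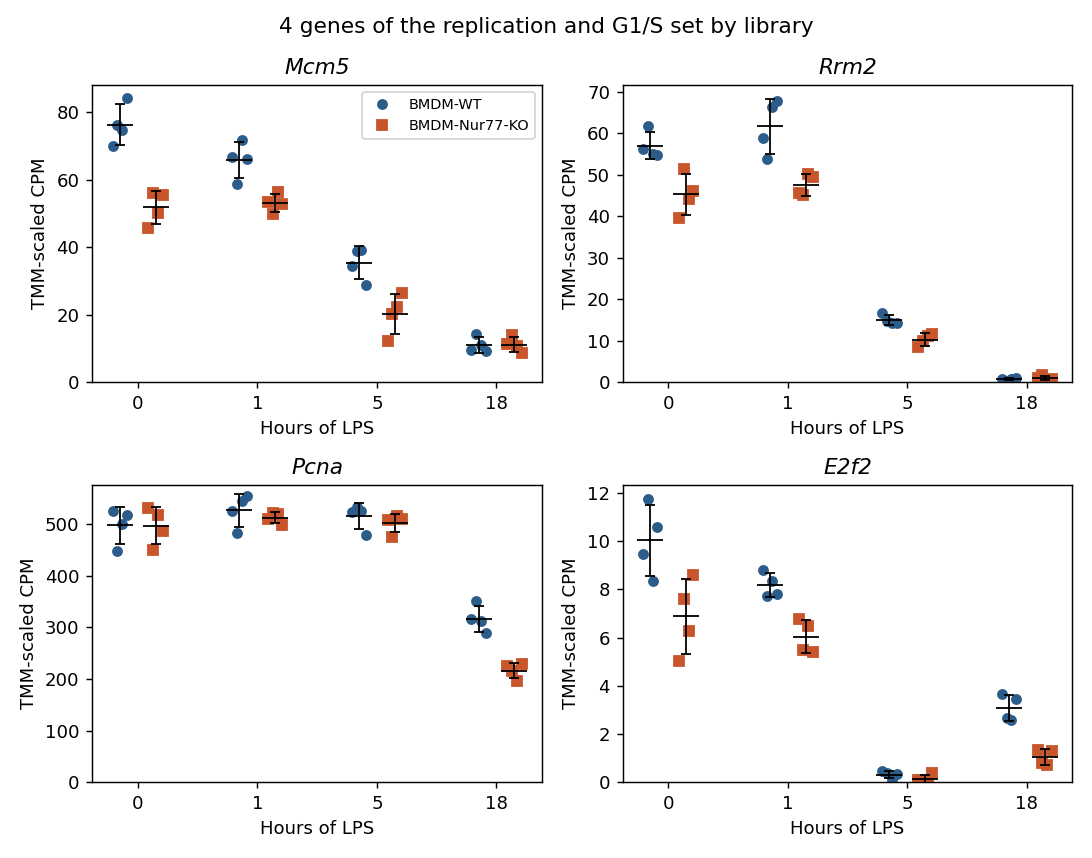
TMM-scaled CPM of Mcm5, Rrm2, Pcna and E2f2 (vertical axes from 0) after 0, 1, 5 and 18 h of LPS, with a circle for each BMDM-WT library, a square for each BMDM-Nur77-KO library, and the mean and SD of 4 libraries in black. Mcm5 and Rrm2 are lower at 5 h and lower again at 18 h, Pcna is lower at 18 h only, with the BMDM-Nur77-KO squares (196 to 229) under the BMDM-WT circles (289 to 351), and E2f2 is near 0 at 5 h and higher again at 18 h.

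Fen1, which trims the flaps between Okazaki fragments, and Lig1, which seals them, both fell. Fen1 went from 47.0 to 54.1 CPM to 14.1 to 16.3 CPM at 5 h and 19.4 to 22.8 CPM at 18 h in BMDM-WT (-1.65 ± 0.13, adjusted p = 2.40e-12 and -1.22 ± 0.13, adjusted p = 9.41e-10). Lig1 fell by 0.75 at 5 h and by 2.26 at 18 h.

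The transcription factors dipped at 5 h. E2f1 read 29.4, 27.4, 30.8 and 30.4 CPM at 0 h, 7.23, 11.4, 11.8 and 9.52 CPM at 5 h and 31.7, 27.4, 23.1 and 30.6 CPM at 18 h in BMDM-WT, so the 18 h range covered the 0 h range. It fell at 5 h (-1.56 ± 0.13, adjusted p = 1.03e-11) and did not differ from 0 h by the test at 18 h (-0.063 ± 0.12, adjusted p = 0.662), where library totals alone gave -0.42 (adjusted p = 0.00702). E2f2 fell from 9.47, 11.8, 8.33 and 10.6 CPM to 4, 3, 1 and 3 counts at 5 h, 0.452, 0.365, 0.110 and 0.353 CPM, and came back to 3.65, 2.66, 2.60 and 3.44 CPM at 18 h (-4.94 ± 0.30, adjusted p = 1.75e-15 and -1.70 ± 0.19, adjusted p = 2.81e-09). Uhrf1, which guides maintenance DNA methylation at replication forks, fell and stayed low, with 47.0 to 55.0 CPM at 0 h, 8.81, 6.44, 6.28 and 5.17 CPM at 5 h and 4.74, 3.80, 4.51 and 4.65 CPM at 18 h (-2.90 ± 0.12, adjusted p = 3.47e-19 and -3.49 ± 0.13, adjusted p = 8.54e-21).

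The direct comparison of 18 h with 5 h separated these courses. In BMDM-WT 22 of the 37 genes were lower at 18 h (all genes 33.4%) and 8 were higher (all genes 36.1%), and the share of higher genes among all calls was 51.9%, or 66.4% with library totals alone. In BMDM-Nur77-KO 21 were lower (all genes 34.2%) and 8 higher (all genes 35.2%). Rrm2, Tyms, Ccnd2 and Pola1 fell most in BMDM-WT, by 4.17, 3.49, 3.23 and 2.43 on the log2 scale, with adjusted p of 1.11e-24 to 6.36e-12. E2f2, Rfc2, E2f1 and Pold1 rose most, by 3.24, 1.64, 1.5 and 1.30, with adjusted p of 4.30e-11 to 2.08e-05.

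Cyclins, kinases and inhibitors went both ways. Ccnd2, a D-type cyclin, had the largest rise of the 37 genes. It stood at 26.4, 30.3, 27.7 and 31.0 CPM at 0 h, 32.5, 32.2, 34.5 and 36.5 CPM at 1 h, 735, 709, 711 and 696 CPM at 5 h and 71.1, 77.7, 80.0 and 75.2 CPM at 18 h in BMDM-WT. The 5 h libraries were far above all others, and the 18 h libraries were still above 0 h. The log2 fold change was 0.23 ± 0.076, adjusted p = 0.0281 at 1 h, 4.63 ± 0.083, adjusted p = 4.98e-28 at 5 h and 1.40 ± 0.075, adjusted p = 1.72e-16 at 18 h. Ccnd1, the D-type cyclin with the higher level per length before LPS (142 ± 15.4 RPKM against 4.56 ± 0.336 RPKM for Ccnd2), moved the other way, from 483, 607, 490.0 and 543 CPM to 428, 406, 392 and 423 CPM at 5 h and 215, 285, 227 and 202 CPM at 18 h (-0.36 ± 0.092, adjusted p = 8.26e-04 and -1.19 ± 0.093, adjusted p = 1.22e-12). The limit on strand holds for Ccnd1 and Ccnd2 as well, and for Pole, Gins2, Cdc45, Fen1, Lig1, Ccne2, Cdk2, Cdk4, Cdkn1a and Mcm7.

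Cdkn1a, the CDK inhibitor induced by p53 and by other signals, rose at every time. Its BMDM-WT libraries read 293, 336, 324 and 320.3 CPM at 0 h, 1052, 1059, 949.8 and 1004 CPM at 1 h, 2007, 2134, 2165 and 1946 CPM at 5 h and 628, 653, 596 and 667 CPM at 18 h, with no overlap between times. The log2 fold change was 1.67 ± 0.077, adjusted p = 1.46e-17 at 1 h, 2.70 ± 0.079, adjusted p = 2.88e-23 at 5 h and 1.00 ± 0.075, adjusted p = 5.75e-13 at 18 h. Cdkn2c, an INK4 inhibitor of Cdk4, fell from 20.9 to 26.3 CPM to 4.23 to 6.39 CPM at 5 h and 4.56 to 6.20 CPM at 18 h (-2.12 ± 0.14, adjusted p = 1.03e-14 and -2.16 ± 0.13, adjusted p = 4.06e-15).

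The kinases fell in BMDM-WT. Cdk2 went from 29.9, 26.8, 24.7 and 27.6 CPM to 8.59, 8.39, 7.72 and 7.52 CPM at 5 h and back up to 19.2, 16.8, 14.7 and 18.9 CPM at 18 h (-1.76 ± 0.11, adjusted p = 5.45e-15 and -0.65 ± 0.10, adjusted p = 1.37e-06). Cdk4 gave -0.83 ± 0.11, adjusted p = 7.22e-08 at 5 h and -0.98 ± 0.11, adjusted p = 3.03e-09 at 18 h. Of the E-type cyclins, Ccne2 fell (-1.24 ± 0.32, adjusted p = 0.00112 at 5 h and -2.17 ± 0.34, adjusted p = 1.75e-06 at 18 h), whereas Ccne1 was lower at 1 h (-0.39 ± 0.12, adjusted p = 0.0145) and was not called at 5 h (-0.26 ± 0.12, adjusted p = 0.0551) or 18 h (0.24 ± 0.11, adjusted p = 0.0623) in BMDM-WT. Library totals alone put Ccne1 at -0.88 (adjusted p = 1.16e-07) at 5 h and -0.12 (adjusted p = 0.344) at 18 h.

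In BMDM-Nur77-KO the deepest falls at 5 h were E2f2 (-5.50 ± 0.34), Cdc6 (-4.09 ± 0.22), Pold1 (-2.85 ± 0.24) and Uhrf1 (-2.70 ± 0.12), with adjusted p of 2.47e-18 to 4.04e-12, and the genes that rose were Ccnd2 (4.50 ± 0.083), Cdkn1a (2.79 ± 0.080), Ccne1 (0.70 ± 0.11) and Rfc3 (0.64 ± 0.11), with adjusted p of 6.99e-28 to 4.46e-06. E2f2 held 1, 1, 0 and 4 counts in the 4 libraries of that group, so its fold change there rests on almost no reads. With library totals alone the rises of Ccne1 and Rfc3 at 5 h were 0.080 (adjusted p = 0.527) and 0.022 (adjusted p = 0.860). At 18 h the deepest falls were Rrm2 (-5.40 ± 0.16), Pole (-3.28 ± 0.14), Uhrf1 (-3.04 ± 0.13) and Pola1 (-2.85 ± 0.20), with adjusted p of 3.22e-23 to 4.87e-14, and the largest rises Ccnd2 (3.22 ± 0.079), Ccne1 (2.29 ± 0.11), Cdkn1a (0.90 ± 0.075) and Rfc3 (0.79 ± 0.11), with adjusted p of 3.95e-25 to 9.28e-08. From 5 to 18 h the largest falls were Rrm2 (-3.27 ± 0.18), Pola1 (-2.17 ± 0.20), Tyms (-2.03 ± 0.15) and Cdkn1a (-1.89 ± 0.077) and the largest rises E2f2 (2.75 ± 0.48), Rfc2 (1.78 ± 0.15), Cdc6 (1.63 ± 0.28) and Ccne1 (1.60 ± 0.11), with adjusted p of 2.76e-19 to 8.71e-06. Ccne1 went from 8.20, 10.3, 10.9 and 9.09 CPM at 0 h to 16.1, 16.2, 15.1 and 15.0 CPM at 5 h and 44.2, 47.6, 48.9 and 48.4 CPM at 18 h, with no overlap between the times.

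Before LPS, BMDM-Nur77-KO held less message for many replication genes. The question of the genotype comparison is what loss of Nur77 does at each time. At 0 h 17 of the 37 genes were lower (all genes 6.34%) and 0 were higher (all genes 6.33%) in BMDM-Nur77-KO, by edgeR's test, with 0 higher and 24 lower at an unadjusted p under 0.05 and 0 higher and 18 lower by DESeq2. The median log2 difference of the 37 genes was -0.33, against -0.028 for all genes. The helicase group held 9 of the lower genes out of its 12, and 2 of the 9 polymerase and clamp genes were lower, Pole and Pold1. Without library 3 of BMDM-Nur77-KO at 0 h the lower genes numbered 11. Of the 17 calls, 11 held when any 1 of the 8 libraries was left out, and those of Mcm10 and Rrm2 ended without most of the libraries (adjusted p up to 0.159 and 0.161). The differences were small, and 2 genes passed a log2 difference of 0.58, Pold1 and Cdc6.

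Lig1 gave a clear example of this offset. Its 0 h libraries read 48.7, 52.5, 48.0 and 50.3 CPM in BMDM-WT and 32.8, 36.2, 33.2 and 36.2 CPM in BMDM-Nur77-KO, 2 ranges that stayed apart (-0.53 ± 0.088, adjusted p = 8.99e-05). Mcm6 read 127, 122, 120.4 and 130.3 CPM in BMDM-Nur77-KO, all below the BMDM-WT libraries given above (-0.38 ± 0.059, adjusted p = 3.78e-05). Mcm5 read 45.7, 56.1, 50.3 and 55.5 CPM (-0.56 ± 0.14, adjusted p = 0.00907), and Mcm7 36.2, 39.9, 38.8 and 42.7 CPM (-0.52 ± 0.10, adjusted p = 5.43e-04). In each of these genes every BMDM-Nur77-KO library was under every BMDM-WT library.

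Pold1 read 13.9, 15.9, 15.2 and 14.7 CPM in BMDM-WT and 8.11, 10.3, 9.67 and 11.2 CPM in BMDM-Nur77-KO (-0.60 ± 0.17, adjusted p = 0.0188). Cdc6 read 12.8, 12.0, 12.9 and 14.5 against 9.29, 9.24, 6.68 and 9.40 CPM (-0.59 ± 0.13, adjusted p = 0.00308). The call of Pold1 ended without library 1 or library 3 of BMDM-Nur77-KO (adjusted p up to 0.0855). The remaining called genes were Mcm2 (-0.48 ± 0.10), Mcm3 (-0.36 ± 0.086), Mcm4 (-0.23 ± 0.072), Mcm10 (-0.39 ± 0.13), Gins2 (-0.44 ± 0.11), Pole (-0.51 ± 0.11), Rrm1 (-0.33 ± 0.093), Rrm2 (-0.33 ± 0.11), Cdkn2c (-0.52 ± 0.12), E2f2 (-0.54 ± 0.17) and Uhrf1 (-0.44 ± 0.10), with adjusted p of 0.00180 to 0.0433. Of these, Mcm4 lost its call without any 1 of 5 libraries (adjusted p up to 0.104), E2f2 without any 1 of 4 (0.150), and Rrm1 without library 4 of BMDM-WT or library 3 of BMDM-Nur77-KO (0.0761). Pcna, the cyclins, Cdk2, Cdk4, Cdkn1a and E2f1 did not pass the test at 0 h. Pcna differed by -0.0029 ± 0.070, adjusted p = 0.984, and Cdkn1a by -0.0020 ± 0.075, adjusted p = 0.991.

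After 1 h of LPS 8 genes were lower in BMDM-Nur77-KO (all genes 3.06%) and 0 higher (all genes 3.48%), with 1 higher at an unadjusted p under 0.05 and 0 higher by DESeq2. The lower genes were Pole (-0.52 ± 0.11), Cdkn2c (-0.43 ± 0.12), Rrm1 (-0.40 ± 0.093), Lig1 (-0.40 ± 0.088), Rrm2 (-0.37 ± 0.11), Uhrf1 (-0.34 ± 0.10), Mcm4 (-0.32 ± 0.072) and Mcm6 (-0.29 ± 0.059), with adjusted p of 0.00128 to 0.0464. Those of Pole, Rrm1, Lig1, Mcm4 and Mcm6 held without each library in turn, whereas Uhrf1 lost its call without any 1 of the 8 (adjusted p up to 0.196), Rrm2 without any 1 of 5 (0.110) and Cdkn2c without any 1 of 4 (0.102). The count was 5 without library 2 and 5 without library 4 of BMDM-Nur77-KO at 1 h, and 16 when only the 8 libraries compared were fitted. The summed neutrophil markers given above lay higher in BMDM-Nur77-KO too, at 0 and 1 h, with overlap at 0 h and none at 1 h, and their part in the result was not tested.

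At 5 h 17 genes were lower (all genes 10.7%) and 2 higher (all genes 13.7%) in BMDM-Nur77-KO. Mcm7 read 21.8, 18.2, 16.5 and 16.2 CPM in BMDM-WT and 7.13, 9.76, 11.8 and 12.4 CPM in BMDM-Nur77-KO, with no overlap (-0.82 ± 0.12, adjusted p = 9.29e-06). Mcm5 read 12.2, 20.3, 22.3 and 26.4 CPM in BMDM-Nur77-KO, all below the BMDM-WT libraries (-0.80 ± 0.16, adjusted p = 4.92e-04). Pole read 5.40, 5.34, 6.09 and 5.76 CPM, also below all of BMDM-WT (-0.78 ± 0.14, adjusted p = 1.51e-04). Library 1 of BMDM-Nur77-KO was the lowest of its group for Mcm5 and Mcm7. Without it the differences were -0.63 (adjusted p = 0.00136) for Mcm5 and -0.69 (adjusted p = 2.27e-05) for Mcm7. Then 15 genes were lower and 2 higher, with a different member in the place of Ccne2. When only the 8 libraries of this time were fitted, 5 were lower and 1 higher.

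Ccnd1 was among the genes that were lower at 5 h. It read 428, 406, 392 and 423 CPM in BMDM-WT and 224, 254, 269.8 and 270.3 CPM in BMDM-Nur77-KO, 2 ranges far apart (-0.70 ± 0.092, adjusted p = 2.92e-06). The remaining lower genes were Mcm10 (-0.65 ± 0.13), Cdt1 (-0.58 ± 0.19), Gins2 (-0.56 ± 0.12), Rrm2 (-0.54 ± 0.13), Mcm6 (-0.52 ± 0.060), Mcm2 (-0.51 ± 0.13), Lig1 (-0.46 ± 0.094), Rfc3 (-0.46 ± 0.10), Tyms (-0.44 ± 0.13), Cdk4 (-0.44 ± 0.11), Mcm4 (-0.39 ± 0.077), Mcm3 (-0.35 ± 0.096) and Rrm1 (-0.32 ± 0.096), with adjusted p of 2.31e-07 to 0.0246. Cdt1 rested in part on library 1 of BMDM-Nur77-KO, with -0.36 (adjusted p = 0.10) without it, and it also lost its call without library 2 of either genotype. Cdk4 stayed called without library 1 of BMDM-Nur77-KO but moved to -0.29 (adjusted p = 0.0232). Mcm3 gave -0.28 (adjusted p = 0.0557) without library 1 of BMDM-Nur77-KO and -0.28 (adjusted p = 0.0549) without library 2 of BMDM-WT, and Tyms -0.38 (adjusted p = 0.0563) without library 1 of BMDM-WT. The E2F factors, Uhrf1, Pcna and Cdkn1a did not pass the test at 5 h with all libraries. Cdkn1a read 1785, 2258, 2440 and 2287 CPM in BMDM-Nur77-KO, against 1946 to 2165 CPM in BMDM-WT. Cdk2 read 7.13, 9.51, 10.3 and 11.0 CPM, against 7.52 to 8.59 CPM. For both genes only library 1 of BMDM-Nur77-KO did not lie above every BMDM-WT library.

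The genes that were higher at 5 h were both E-type cyclins. Ccne1 read 9.26, 11.8, 9.26 and 8.46 CPM in BMDM-WT and 16.1, 16.2, 15.1 and 15.0 CPM in BMDM-Nur77-KO, without overlap (0.69 ± 0.12, adjusted p = 1.24e-04). Ccne2 read 7.68, 6.68, 7.72 and 7.05 CPM and 28.5, 12.5, 7.90 and 9.08 CPM (0.98 ± 0.33, adjusted p = 0.0329), where library 1 was the highest by far. Without that library the difference in Ccne2 was 0.44 (adjusted p = 0.362), and it was also not called without any 1 of the 4 BMDM-WT libraries.

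**Figure D3:**
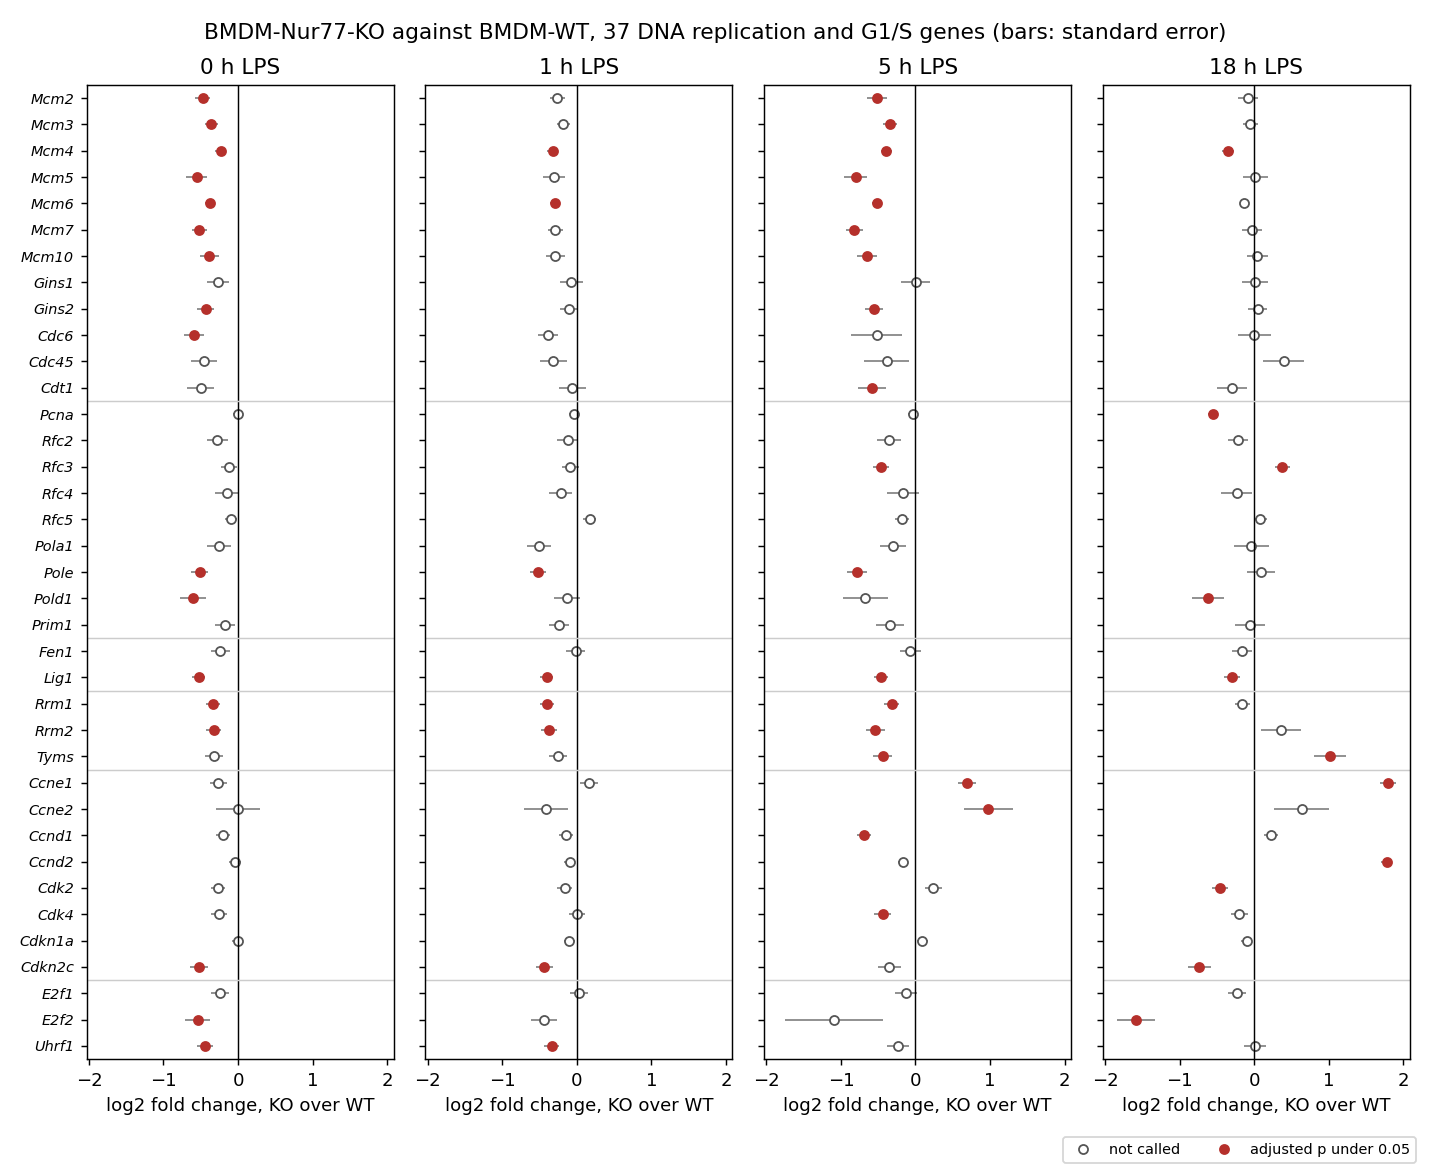
Log2 fold change of BMDM-Nur77-KO over BMDM-WT (horizontal axes) for the 37 genes in the same order by role, in separate panels for 0, 1, 5 and 18 h of LPS, with bars of ± 1 standard error. Filled points have an adjusted p under 0.05. At 0 and 5 h the filled points of the upper, helicase rows all lie left of 0, and at 18 h the points that stand out are Ccne1 (1.79) and Ccnd2 (1.78) on the right and E2f2 (-1.59) on the left.

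At 18 h 4 genes were higher (all genes 11.7%) and 7 lower (all genes 9.93%) in BMDM-Nur77-KO, and the median of the 37 genes was -0.053 against -0.012 for all genes. Of the 12 helicase genes only Mcm4 was called. With library totals alone, 3 were higher and 9 lower, and 34.4% rather than 54.2% of the calls over all genes were higher.

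Ccne1 and Ccnd2 had the largest differences. Ccne1, the partner of Cdk2 at the entry into S phase, read 11.9, 14.2, 14.6 and 13.9 CPM in BMDM-WT and 44.2, 47.6, 48.9 and 48.4 CPM in BMDM-Nur77-KO (1.79 ± 0.11, adjusted p = 1.50e-13). Every BMDM-Nur77-KO library held well above the highest BMDM-WT library. Ccnd2 read 71.1, 77.7, 80.0 and 75.2 CPM in BMDM-WT and 266, 257, 241 and 279.8 CPM in BMDM-Nur77-KO, again far apart (1.78 ± 0.074, adjusted p = 2.17e-17). At 5 h it had read 599, 625, 672 and 640.0 CPM in BMDM-Nur77-KO, just under the BMDM-WT range, a difference that did not pass the test (-0.17 ± 0.071, adjusted p = 0.0766).

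Rfc3 and Tyms were the other higher genes at 18 h. Rfc3 read 20.8, 19.8, 20.9 and 21.1 CPM in BMDM-Nur77-KO, above every BMDM-WT library (0.38 ± 0.10, adjusted p = 0.00784), a difference that library totals alone put at 0.28 (adjusted p = 0.0691). Tyms read 1.28, 1.04, 0.867 and 0.516 CPM in BMDM-WT and 1.69, 2.40, 1.95 and 1.46 CPM in BMDM-Nur77-KO (1.02 ± 0.21, adjusted p = 9.80e-04). These Tyms levels are 14, 11, 10 and 6 counts against 19, 27, 28 and 18 counts, so the whole difference lies near the bottom of its range over time.

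E2f2 was lowest relative to BMDM-WT. It read 3.65, 2.66, 2.60 and 3.44 CPM in BMDM-WT and 1.34, 0.798, 0.697 and 1.30 CPM in BMDM-Nur77-KO, from 40, 28, 30 and 40 and 15, 9, 10 and 16 counts, with no overlap (-1.59 ± 0.26, adjusted p = 1.89e-05). Pcna read 225, 216, 196 and 229 CPM in BMDM-Nur77-KO, below all BMDM-WT libraries, where no earlier time had been called (-0.55 ± 0.070, adjusted p = 4.16e-07). Cdkn2c read 6.20, 4.56, 5.55 and 5.68 CPM and 3.57, 2.84, 3.21 and 3.58 CPM (-0.74 ± 0.16, adjusted p = 7.12e-04). All 3 pairs of ranges were separate.

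Cdk2 read 19.2, 16.8, 14.7 and 18.9 CPM in BMDM-WT and 13.7, 12.6, 12.1 and 12.3 CPM in BMDM-Nur77-KO (-0.46 ± 0.10, adjusted p = 0.00155). Mcm4 and Lig1 differed by -0.35 ± 0.080, adjusted p = 0.00136 and by -0.30 ± 0.11, adjusted p = 0.0427. The call of Lig1 ended without any 1 of 5 libraries (adjusted p up to 0.148) and in DESeq2 (adjusted p = 0.0692). Pold1 read 4.56, 5.03, 4.25 and 7.57 CPM and 4.28, 3.99, 4.04 and 1.63 CPM, and its ranges overlapped in part (-0.62 ± 0.21, adjusted p = 0.0330). Without library 4 of BMDM-Nur77-KO it differed by -0.39 (adjusted p = 0.159), and without library 4 of BMDM-WT by -0.40 (adjusted p = 0.224). Without library 4 of BMDM-Nur77-KO at 18 h, 4 genes were higher and 6 lower.

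**Figure D4:**
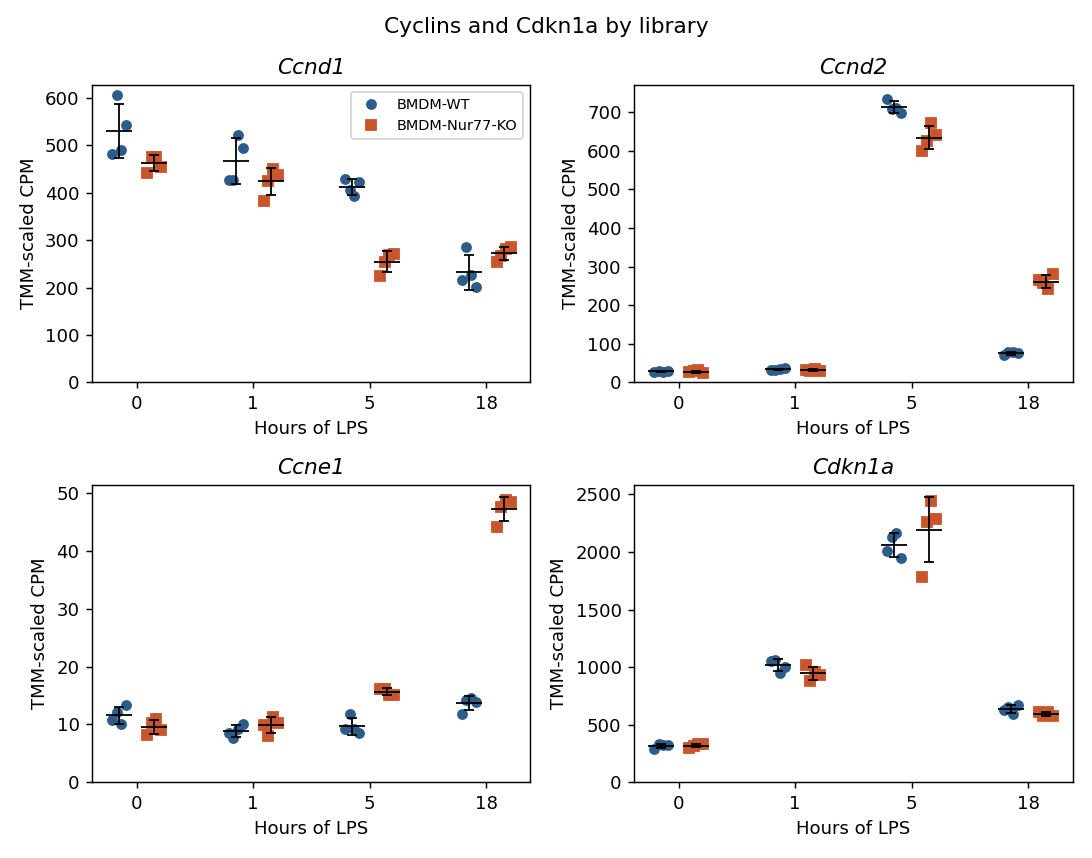
TMM-scaled CPM of Ccnd1, Ccnd2, Ccne1 and Cdkn1a (vertical axes from 0) after 0, 1, 5 and 18 h of LPS, with a circle for each BMDM-WT library, a square for each BMDM-Nur77-KO library, and the mean and SD of 4 libraries in black. At 18 h the squares of Ccne1 (44.2 to 48.9) and Ccnd2 (241 to 279.8) stand above the circles (11.9 to 14.6 and 71.1 to 80.0), at 5 h the squares of Ccnd1 lie under the circles, and the circles and squares of Cdkn1a overlap at every time. At 5 h that overlap comes from library 1 of BMDM-Nur77-KO only.

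The interaction term compares the LPS effect in BMDM-Nur77-KO with that in BMDM-WT. At 1 h 0 members were called higher and 0 lower by edgeR, where 0.0447% and 0.0268% of all genes were, with 3 higher and 0 lower at an unadjusted p under 0.05 and 0 by DESeq2. At 5 h 1 was higher (all genes 1.74%), Ccne1 (0.95 ± 0.16, adjusted p = 7.53e-04), and 1 was lower (all genes 1.38%), Ccnd1 (-0.50 ± 0.13, adjusted p = 0.0283). The call of Ccnd1 ended without library 1 or 3 of BMDM-WT at 0 h, 1 or 4 of BMDM-WT at 5 h, 2 or 3 of BMDM-Nur77-KO at 0 h or 2 of BMDM-Nur77-KO at 5 h, each time with an adjusted p of at most 0.0729.

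At 18 h 5 members were higher (all genes 5.36%) and 2 lower (all genes 4.07%), and the share of higher genes among all calls was 56.9%, or 40.3% with library totals alone. At an unadjusted p under 0.05 in edgeR's test, 17 members were higher and 2 lower. The median interaction of the 37 genes was 0.24, against 0.015 for all genes. Ccne1 rose by 2.29 on the log2 scale in BMDM-Nur77-KO against 0.24 in BMDM-WT, an interaction of 2.05 ± 0.16, adjusted p = 1.24e-10. Ccnd2 rose by 3.22 against 1.40 (1.82 ± 0.11, adjusted p = 6.83e-13). Tyms fell less in BMDM-Nur77-KO (1.34 ± 0.24, adjusted p = 2.44e-04). Rfc3 rose more (0.50 ± 0.15, adjusted p = 0.0286) and Ccnd1 fell less (0.43 ± 0.13, adjusted p = 0.0311). Both of these calls ended with library totals alone (0.42 (adjusted p = 0.0940) for Rfc3 and 0.35 (adjusted p = 0.119) for Ccnd1). Rfc3 also lost its call without library 4 of BMDM-WT or 1 or 3 of BMDM-Nur77-KO at 0 h, or 2 or 3 of BMDM-WT at 18 h (adjusted p up to 0.0730), and Ccnd1 without 2 or 4 of BMDM-WT or 1 of BMDM-Nur77-KO at 0 h, or 1, 3 or 4 of BMDM-WT or 3 of BMDM-Nur77-KO at 18 h (adjusted p up to 0.0876).

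Pcna and E2f2 fell more in BMDM-Nur77-KO by 18 h, with interactions of -0.55 ± 0.099, adjusted p = 2.45e-04 and -1.04 ± 0.31, adjusted p = 0.0269. Pcna fell by 1.20 on the log2 scale in BMDM-Nur77-KO and by 0.65 in BMDM-WT. The call of E2f2 ended without library 3 of BMDM-WT or 2 or 4 of BMDM-Nur77-KO at 0 h, or 1 or 4 of BMDM-WT or 2 or 3 of BMDM-Nur77-KO at 18 h (adjusted p up to 0.0995), while Ccne1, Ccnd2, Tyms and Pcna kept theirs without each of the 16 libraries in turn. Without library 4 of BMDM-Nur77-KO at 18 h, 9 members were higher and 2 lower. Without that library and library 1 of BMDM-Nur77-KO at 5 h, 13 were higher and 2 lower. Cdkn1a gave -0.10 ± 0.11, adjusted p = 0.674 at 18 h.

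Lists of related genes, named by function, were followed in the same fit. Of 46 further replication genes, 45 were tested (Exo1 was not), and 35 fell and 6 rose at 5 h in BMDM-WT, with a median of -1.16, beside 40.1% lower and 30.1% higher over all genes. At 18 h 33 fell and 7 rose, with a median of -0.89, beside 34% and 32.4% over all genes. The largest falls at 18 h were Clspn (-4.98), a checkpoint adaptor at the fork, Tk1 (-4.44), thymidine kinase, and Ticrr (-4.14), which loads Cdc45. Dck, deoxycytidine kinase of the salvage route, rose by 2.46. At 0 h 13 of the 45 were lower and 0 higher in BMDM-Nur77-KO (all genes 6.34% and 6.33%), led by Tk1 (-1.01), Pold2 (-0.73) and Tonsl (-0.69).

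At 18 h 4 of these further replication genes were lower and 1, Rnaseh2b (0.56), was higher in BMDM-Nur77-KO, where 9.93% of all genes were lower and 11.7% higher, so the lower count was near the share over all genes. The lower ones included Gmnn (-0.61), the inhibitor of Cdt1. Of the 20 mitosis genes, 18 fell at 5 h and 19 at 18 h in BMDM-WT, with medians of -1.56 and -3.87 (all genes 40.1% and 34% lower). Cenpf (-7.21), Ube2c (-6.53) and Plk1 (-5.57) fell most. Tpx2, a spindle assembly factor, rose by 1.66 in BMDM-WT and 2.82 in BMDM-Nur77-KO. At 0 h 9 of the 20 were lower and 0 higher in BMDM-Nur77-KO (all genes 6.34% and 6.33%), led by Birc5 (-0.65).

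Of 28 other G1/S regulators, 13 fell and 9 rose at 18 h in BMDM-WT, beside 34% lower and 32.4% higher over all genes, so the rises were near the share over all genes. E2f7, a repressor of the E2F family, fell by 7.36 and Myc by 5.37 on the log2 scale, and Ccnd3, the third D-type cyclin, rose by 1.39. At 18 h in BMDM-Nur77-KO against BMDM-WT, 5 were higher and 3 lower (all genes 11.7% and 9.93%). The higher ones included Cdkn2a (1.43), Rbl1 (0.87), a retinoblastoma family member, and E2f5 (0.84), and the lower ones Cdkn1c (-0.94), Cks1b (-0.57) and Skp2 (-0.52).

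Because Cdkn1a is a known p53 target, 15 other p53 targets were listed, of which 13 were tested (Eda2r and Perp were not). At 5 h in BMDM-WT 8 fell and 3 rose, with a median of -0.43, beside 40.1% lower and 30.1% higher over all genes. Fas (4.12), Mdm2 (2.32) and Plk2 (0.43) rose, and Gdf15 (-3.92), Phlda3 (-2.12) and Zmat3 (-2.10) fell most. Cdkn1a itself rose by 2.70 at this time. At 18 h 4 rose and 3 fell (all genes 32.4% and 34%), so the rises at both times were near the share over all genes.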

How the data were processed

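Poly(A) RNA of 32 BMDM libraries (BMDM-WT and BMDM-Nur77-KO after 0, 1, 5 and 18 h of LPS, 4 libraries each) was prepared with the KAPA mRNA HyperPrep kit and sequenced as paired ends. The authors aligned the reads to mm10 with HISAT2, kept alignments over a mapping quality limit with SAMtools, and counted reads per RefSeq transcript with HOMER without normalization. The submitters' processing notes name HISAT2 2.1.0 and CASAVA 1.8.2. The deposited values are expected counts, since HOMER gives each mate a weight of its own, and were rounded to whole numbers. Rows that pair with no gene name (93 of 42361) held 0.233 to 1.37% of the counts per library and were left out of library sizes and tests.

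The transcript with the highest mean count stood for each of 25067 genes. Genes with a mean of more than 1 RPKM in at least 1 group (11186) were fitted with edgeR 4.0.16 (R 4.3.3), with TMM factors, 1 mean for each of the 8 groups and a quasi-likelihood F test, and p-values were adjusted by Benjamini-Hochberg over all genes tested. Standard errors are the absolute log2 fold change divided by the square root of F. The scripts were tested on simulated data. Library totals of 8742362 to 15780926 set the precision of low genes, and intervals cover counting error and the spread between libraries only. No library was a copy of another: the chi-square statistic per gene was at least 1.94 for each pair within a group.

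The members and the lists of related and marker genes were chosen with earlier results of these data known. All 37 members are described; full statistics are given for the called members with the largest changes (up to 4 each way in a comparison), for the G1/S regulators and for members called between genotypes, and up to 3 called genes each way are named from each other list. Alternatives were DESeq2 1.42.0, its size factors in edgeR, other filters, a size limit on calls, counts summed over transcripts, a fit of only the libraries compared, the replicate number as a block and leaving out each library in turn. Upstream sequences came from RefSeq (GRCm38.p6) and overlaps from GENCODE M21 (GRCm38).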

Additional observations from a re-analysis of the deposited data

Results flagged for a closer look

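Of 296 groups of 4 libraries (37 genes in 8 groups), 13 held a library whose gap to its nearest neighbour took up more of the group's range than Dixon's critical value for 4 samples allows. Chance flags about 1 in 20 groups. The library far above the others was library 2 for Mcm6 in BMDM-WT at 5 h (0.931 of the range) and in BMDM-Nur77-KO at 18 h (0.893), library 1 for Gins1 in BMDM-WT at 18 h (0.939), library 2 for Cdc45 (0.913) and Prim1 (0.833) in BMDM-WT at 0 h, library 4 for Fen1 in BMDM-WT at 0 h (0.896), library 4 for Prim1 in BMDM-WT at 5 h (0.879) and library 1 for Rrm2 in BMDM-WT at 5 h (0.846). The library far below the others was library 3 for Cdc6 in BMDM-Nur77-KO at 0 h (0.941), library 4 for Pold1 in BMDM-Nur77-KO at 18 h (0.892), library 4 for Fen1 in BMDM-WT at 5 h (0.895), library 1 for Fen1 in BMDM-Nur77-KO at 5 h (0.879) and library 1 for Cdk2 in BMDM-Nur77-KO at 1 h (0.843). Only for Pold1 at 18 h did leaving out the far library end a difference between genotypes (-0.39, adjusted p = 0.159).

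The LPS effect differed between genotypes, by the interaction term of the edgeR model, for 2 genes at 5 h and for 7 at 18 h. On the log2 scale, BMDM-Nur77-KO minus BMDM-WT, the differences at 5 h were 0.952 for Ccne1 and -0.495 for Ccnd1. At 18 h they were 2.054 for Ccne1, 1.821 for Ccnd2, 1.344 for Tyms, 0.499 for Rfc3, 0.429 for Ccnd1, -0.55 for Pcna and -1.043 for E2f2. Ccnd1 thus passed the test at both times with opposite signs.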

How the results depend on the processing

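Calls kept their direction under every alternative except 1. With library totals alone, Rfc3 at 18 h against 0 h in BMDM-WT went to -0.071 (adjusted p = 0.581). The composition factors of these groups, 1.20 to 1.26 at 0 h and 0.929 to 0.977 at 18 h, carried the difference. Counts of members called that moved by more than 1.5 times were these. With a size limit on calls (log2 over 1 for LPS and interaction, over 0.58 for genotype), genotype gave 2, 0, 7 and 6 at 0, 1, 5 and 18 h, BMDM-WT at 1 h gave 1, BMDM-Nur77-KO from 5 to 18 h gave 17, and the interaction gave 0 at 5 h and 4 at 18 h. With only the libraries compared, genotype gave 16 at 1 h and 6 at 5 h, BMDM-WT at 1 h gave 11 and the interaction at 1 h gave 1. Without a filter, BMDM-WT at 1 h gave 3 and the interaction at 5 h 1. With library totals alone, BMDM-WT at 1 h gave 15 and the interaction at 5 h 1, and without library 1 of BMDM-Nur77-KO at 5 h and library 4 of BMDM-Nur77-KO at 18 h the interaction at 18 h gave 15. These last 2 settings were chosen after seeing the data. The causes were not tested.

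Leaving out each library in turn gave ranges of 11 to 17 (genotype, 0 h), 5 to 7 (1 h), 16 to 22 (5 h) and 9 to 11 (18 h), of 3 to 5, 32 to 33 and 34 to 36 in BMDM-WT at 1, 5 and 18 h, of 1 to 2, 33 to 35 and 36 to 36 in BMDM-Nur77-KO, of 29 to 31 and 26 to 29 from 5 to 18 h in the 2 genotypes, and of 0 to 0, 1 to 3 and 5 to 11 for the interaction at 1, 5 and 18 h. The highest interaction count at 18 h came without library 4 of BMDM-Nur77-KO at 18 h, and the lowest at 5 h without any 1 of 7 libraries. Of 265 calls of single genes, 264 held in DESeq2, 265 with filterByExpr, 259 with DESeq2 size factors in edgeR and 259 with counts summed over transcripts.

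By correlation, the replicate numbers of the titles gave no sign of pairing. Such correlations cannot tell whether wells of the same number share an animal. Over 48 pairs of the same number and genotype the correlation of deviations from the group means was -0.704 to 0.466 (median -0.025), with 8 over 0.1, and 2 of 32 libraries correlated best with their own number. Among pairs of other numbers and the same genotype the highest value was 0.770. It joined library 1 of BMDM-Nur77-KO at 5 h and library 4 of BMDM-Nur77-KO at 18 h, which lay farthest from their groups. The cause was not tested. With the replicate number as a block, 262 of the 265 calls held (those lost were Mcm10 and Rrm2 at 0 h and Uhrf1 at 1 h between genotypes), and genotype gave 15, 7, 19 and 11 members at 0, 1, 5 and 18 h. Counts limit the precision of low genes. E2f2, Cdc6, Cdc45 and Pold1 at 5 h and Tyms, Rrm2, Cdc6 and Pole at 18 h held fewer than 30 counts in every library of both genotypes. Rfc4 at 5 h and Cdc45, Rfc4 and Prim1 at 18 h did so in BMDM-WT, and E2f2 at 18 h in BMDM-Nur77-KO.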
